A study of Mus musculus with 18 samples.

Results

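The immunoglobulin variable (V) segments are the genes that encode the antigen-binding front of antibodies. A B cell joins 1 V segment to short diversity and joining pieces at the heavy chain locus, and 1 to a joining piece at a kappa or lambda light chain locus, and the joined exon is transcribed together with a constant gene. A plasma cell, the antibody-secreting end stage of the B cell, transcribes its single heavy and single light chain rearrangement at a very high rate, so V counts in bulk tissue weigh each clone by its RNA. In the gut wall most plasma cells make IgA, which the epithelium carries into the lumen.

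Members were all genes with the V gene biotype and at least 50 counts summed over 18 libraries. They numbered 166 of 54532 genes in the tables, and 218 genes carried the biotype. Of the remainder, 39 had between 1 count and the threshold and 13 had none. The rule used only the summed count, so total abundance was fixed by the choice and is given as a description. The members with the fewest counts were Ighv5-15 at 52, Ighv2-6-8 at 57 and Igkv8-34 at 62 counts. Just below the threshold stood Ighv5-2 and Igkv9-129 at 40 counts each and Ighv1-37 at 35. The members held 178235 of the 178776 counts on V genes.

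The libraries came from C57BL/6 mice of 2 lines. One line carried or lacked Il1f5, the IL-36 receptor antagonist gene also called Il36rn, and the other carried or lacked Il1f9, the IL-36 gamma gene also called Il36g. Il1f5+/+ and Il1f9+/+ mice are called WT and Il1f5-/- and Il1f9-/- mice KO. For colitis, mice drank 2.5% dextran sulfate sodium (DSS), a chemical that injures the colon lining, for 5 days and plain water for 2 days, and 0.5 cm of distal colon was taken. The colitis groups held 3 Il1f5 WT, 3 Il1f5 KO, 2 Il1f9 WT and 2 Il1f9 KO libraries. For tumours, colorectal tumours of the azoxymethane and DSS (AOM/DSS) model were taken, with 2 libraries in each of the same 4 groups. The sources used here give neither age nor the way the alleles were made, nor do they say whether a library came from 1 animal. P-values therefore measure the spread between these samples, which may be technical.

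Library totals ran from 16621611 to 23776174 counts. Il1f9 counts were 90 to 1652 in the Il1f9 WT libraries and 0 to 9 in the Il1f9 KO libraries. Il1f5 went against its labels: it was listed at 0 in every WT library and in the Il1f9 KO libraries of both tissues, and had 36 to 45 counts in colitis and 102 to 211 counts in tumours labelled Il1f5 KO. Where those reads come from was not tested. Those libraries are therefore called "labelled Il1f5 KO" throughout, and each direction drawn from them rests on that label. Epithelial markers (10 of 10 detected, including Epcam and Vil1) summed to 13930 to 24280 CPM (counts scaled to a common library total) in all groups. Smooth muscle markers (10 of 10 detected) summed to 1707 to 5830 CPM in colitis pieces and 88.2 to 783 CPM in tumours. Plasma cell genes (20 of 20 detected) summed to 1782 to 2698 CPM and B cell genes (20 of 20) to 103 to 279 CPM. Rag1, the recombinase gene that defines developing lymphocytes, was listed at 0 in every group.

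The 166 members lay at the 3 antibody loci, in the coordinates of the deposited tables, whose build is not named but which were identical for all 166 to GENCODE M21 (GRCm38). The heavy chain locus on chromosome 12 held 85 segments between 113588267 and 116000461, all on the minus strand. The kappa locus on chromosome 6 held 78 between 67609713 and 70704177, with 28 on the plus and 50 on the minus strand. The lambda locus on chromosome 16 held 3, Iglv1, Iglv2 and Iglv3, between 19085017 and 19260859 on the minus strand. Deposited gene lengths were 338 to 480 bases with a median of 360. In the coding part of its V exon a member was 53.66 to 98.99% identical to its nearest relative among the members, with a median of 94.69%, and 80 of 166 had a relative at 95% or more. By contrast, 153 of 166 shared no window of 150 bases, the length of 1 read, with another V segment, and these held 92.42% of member counts. The remaining 13 shared some windows, 1 of them at least 50%. Antibody genes also mutate in B cells, and no source used here says how reads matching several segments were counted, so counts of close relatives are uncertain.

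The leading segments are shown with their closest relatives, since a read is assigned between them by few bases. All are the coding V exon from GENCODE M21 (GRCm38), its first 300 bases where it is longer, 5′ to 3′ on the coding strand, with the bases that differ within a pair in capitals. The lambda pair differed at 9 of 305 bases (97.05% identical), and the shown bases lie at chr16:19085022-19085321 and chr16:19260406-19260705, minus strand:
Iglv1: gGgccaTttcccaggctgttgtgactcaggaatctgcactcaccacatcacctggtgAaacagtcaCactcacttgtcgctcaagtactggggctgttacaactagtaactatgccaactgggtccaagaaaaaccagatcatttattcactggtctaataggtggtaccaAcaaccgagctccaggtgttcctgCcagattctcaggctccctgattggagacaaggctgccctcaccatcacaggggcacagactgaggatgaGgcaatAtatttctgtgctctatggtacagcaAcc
Iglv2: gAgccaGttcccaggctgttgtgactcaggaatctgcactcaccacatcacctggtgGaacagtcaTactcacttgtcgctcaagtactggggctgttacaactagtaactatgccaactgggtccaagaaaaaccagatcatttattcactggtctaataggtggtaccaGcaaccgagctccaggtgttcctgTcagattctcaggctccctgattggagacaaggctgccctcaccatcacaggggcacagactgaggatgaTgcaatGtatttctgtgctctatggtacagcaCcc

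The heavy chain pair differed at 9 of 304 bases, 8 of them shown (97.04% identical), and the shown bases lie at chr12:113588271-113588570 and chr12:113685486-113685785, minus strand. Ighv2-2 was the member nearest the heavy joining genes, and 5.42% of its 150-base windows occurred in another V segment:
Ighv2-2: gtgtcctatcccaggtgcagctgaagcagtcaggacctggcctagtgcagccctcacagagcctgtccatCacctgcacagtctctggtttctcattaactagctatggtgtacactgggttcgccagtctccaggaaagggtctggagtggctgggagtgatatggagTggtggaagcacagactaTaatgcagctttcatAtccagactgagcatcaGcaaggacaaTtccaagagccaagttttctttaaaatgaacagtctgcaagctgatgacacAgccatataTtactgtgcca
Ighv2-5: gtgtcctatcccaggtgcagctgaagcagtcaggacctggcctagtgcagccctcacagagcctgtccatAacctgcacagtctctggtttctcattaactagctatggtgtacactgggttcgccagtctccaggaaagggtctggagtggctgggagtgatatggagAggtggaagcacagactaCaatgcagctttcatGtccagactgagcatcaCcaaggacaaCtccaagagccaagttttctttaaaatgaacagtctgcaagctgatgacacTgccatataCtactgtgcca

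The kappa pair differed at 10 of 313 bases (96.81% identical), and the shown bases lie at chr6:68121515-68121814 and chr6:68270955-68271254, plus strand:
Igkv1-117: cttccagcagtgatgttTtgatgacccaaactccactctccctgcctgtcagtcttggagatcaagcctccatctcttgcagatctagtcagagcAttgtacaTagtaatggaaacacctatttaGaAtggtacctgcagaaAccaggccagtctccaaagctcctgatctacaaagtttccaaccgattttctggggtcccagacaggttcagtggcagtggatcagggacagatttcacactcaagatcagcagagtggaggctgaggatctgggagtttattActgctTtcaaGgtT
Igkv1-110: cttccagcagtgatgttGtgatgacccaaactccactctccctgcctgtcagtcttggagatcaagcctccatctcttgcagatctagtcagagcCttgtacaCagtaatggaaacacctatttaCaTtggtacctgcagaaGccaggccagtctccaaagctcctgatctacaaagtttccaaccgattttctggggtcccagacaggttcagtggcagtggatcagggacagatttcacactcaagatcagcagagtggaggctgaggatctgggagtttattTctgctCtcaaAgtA

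A further kappa pair, shown because Igkv10-96 led 1 tumour library, differed at 16 of 298 bases (94.63% identical), and the shown bases lie at chr6:68631963-68632260 and chr6:68704508-68704805, minus strand:
Igkv10-96: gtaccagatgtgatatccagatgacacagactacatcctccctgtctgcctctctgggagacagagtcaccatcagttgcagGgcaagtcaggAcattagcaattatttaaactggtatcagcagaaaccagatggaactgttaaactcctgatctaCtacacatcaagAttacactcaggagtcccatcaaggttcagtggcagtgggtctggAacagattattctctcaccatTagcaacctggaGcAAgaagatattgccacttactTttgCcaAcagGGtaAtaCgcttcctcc
Igkv10-94: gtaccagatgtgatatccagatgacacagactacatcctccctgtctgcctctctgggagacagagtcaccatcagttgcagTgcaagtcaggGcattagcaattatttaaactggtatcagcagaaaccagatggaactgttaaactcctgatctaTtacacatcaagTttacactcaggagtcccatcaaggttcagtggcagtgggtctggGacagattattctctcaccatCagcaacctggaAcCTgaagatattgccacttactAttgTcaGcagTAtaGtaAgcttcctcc

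V segment RNA was present in all libraries at 104 to 1035 CPM summed over the members. In colitis of the Il1f5 line the WT libraries had 657, 370.4 and 392.4 CPM and the libraries labelled Il1f5 KO 499.8, 971 and 1035 CPM. The first of the latter lay below the first WT library, so the groups overlapped. Means were 473 ± 160 and 835 ± 292 CPM (SD, n = 3 each), a log2 ratio of 0.82 ± 0.52. For log2 ratios of group means, here and below, ± is the pooled SD of the log2 values within groups. In colitis of the Il1f9 line the WT libraries had 357 and 795 CPM and the KO libraries 574 and 722 CPM, which lay between them. The log2 ratio of the means was 0.17 ± 0.60 and changed sign without single libraries, between -0.30 and 0.86. In colitis, V level thus varied within a group by as much as between groups, except that the 2 highest libraries were both labelled Il1f5 KO.

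Tumours of the Il1f5 line had 921 and 490.4 CPM in WT and 381 and 654 CPM in libraries labelled Il1f5 KO. Tumours of the Il1f9 line had 201 and 104 CPM in WT and 189.5 and 164 CPM in KO. The 4 Il1f9-line tumours were the 4 libraries with the lowest V level of the 18, whatever their genotype. Their B cell gene sums were 103 to 171 CPM against 152 to 167 CPM in the Il1f5-line tumours, and their neutrophil marker sums 1056 to 3967 CPM against 396 to 543 CPM. The part of these in the V level was not tested, and line and deposited table cannot be told apart. Log2 ratios of KO to WT means were -0.45 ± 0.60 and 0.22 ± 0.48 in the 2 tumour comparisons, both of which changed sign without single libraries (-0.89 to 0.08 and -0.18 to 0.76). In bulk tissue, fewer plasma cells and less antibody RNA per cell cannot be told apart. No test was made of these sums, since the members were chosen with results known.

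**Figure D1:**
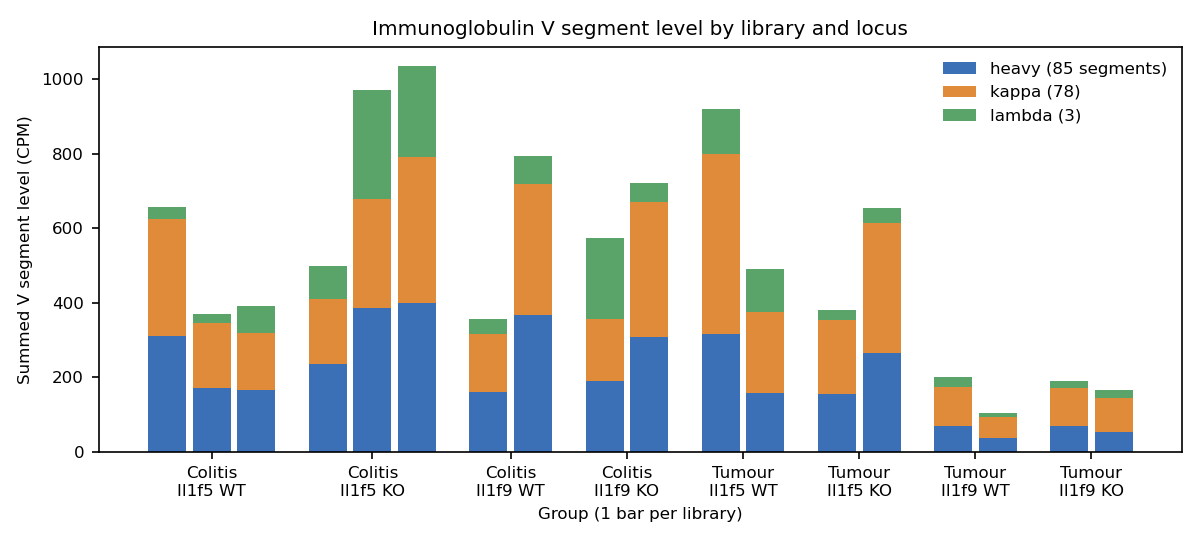
Summed level of the 166 V segments in CPM, 1 bar per library, split by locus into heavy, kappa and lambda segments. The bars run from 104 CPM in an Il1f9 WT tumour to 1035 CPM in a colitis library labelled Il1f5 KO, and the 4 Il1f9-line tumours are the lowest.

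Shares of the loci were taken from counts per kilobase of the deposited gene length, so that segments of different length compare. Counting error alone, as the 95% Wilson interval of the plain count share, was at most 2.16 percentage points on either side for any locus in any library. Reads are not independent molecules, so these intervals cover counting error only. The heavy share was 34.3 to 47.9% in colitis and 32.1 to 40.9% in tumours. The kappa share was 29.5 to 50.04% and 44.9 to 56.3%, respectively.

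Lambda segments varied most relative to their level. In colitis they made up 4.54, 6.71 and 17.9% of V counts in Il1f5 WT and 17.4, 28.9 and 22.5% in the libraries labelled Il1f5 KO. The third WT library lay just above the first library labelled KO, and the other values did not overlap. Colitis of the Il1f9 line had 11.5 and 9.10% in WT and 36.2 and 6.75% in KO, so that the KO pair held both the highest lambda share of the series and one of the lower ones. In tumours of the Il1f5 line the direction of the label was the opposite of that in colitis, with 12.8 and 22.5% in WT and 6.61 and 5.72% in libraries labelled Il1f5 KO, which did not overlap. Tumours of the Il1f9 line had 13.3 and 11.1% in WT and 9.50 and 11.6% in KO. As a share of light chain segments alone, lambda reached 55.1% in the first colitis Il1f9 KO library and 8.67% in the first colitis Il1f5 WT library.

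Iglv1 made nearly all of this. The segment lies next to the lambda joining genes and is the main lambda V segment of the mouse. It was the single largest V segment in 14 of 18 libraries, 7 of 10 in colitis and 7 of 8 in tumours. Within lambda it held 64.6 to 98.3% in colitis and 66.3 to 96.2% in tumours. Its counts in colitis were 505, 389 and 1651 in Il1f5 WT against 1549, 5149 and 4242 in libraries labelled Il1f5 KO, and 546 and 1239 in Il1f9 WT against 3661 and 805 in KO. Scaled to depth, the Il1f5-line groups were apart, at 23.4 to 69.4 CPM in WT and 88.6 to 263 CPM in libraries labelled Il1f5 KO. In the Il1f9 line the second KO library, at 39.1 CPM, lay below the second WT library. The edgeR log2 fold changes were 2.25 ± 0.83 (SE; adjusted p = 0.094) and 1.53 ± 0.99 (adjusted p = 0.333). In tumours of the Il1f5 line its counts were 2001 and 1881 in WT and 548 and 613 in libraries labelled KO, a log2 fold change of -1.72 ± 0.51 with an adjusted p of 0.125 in edgeR. The groups did not overlap, but the change did not pass the test over all genes.

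Iglv2, the close relative shown above, had 31 to 526 counts in colitis and 8 to 151 in tumours, and Iglv3 had 4 to 38 and 4 to 36. Iglv3 was called higher in colitis labelled Il1f5 KO (5, 4 and 13 against 12, 38 and 23 counts, a log2 fold change of 1.78 ± 0.55, edgeR adjusted p = 0.0354). The third WT library had the most counts of its group and the first library labelled KO the fewest, and scaled to depth the groups did not overlap.

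**Figure D2:**
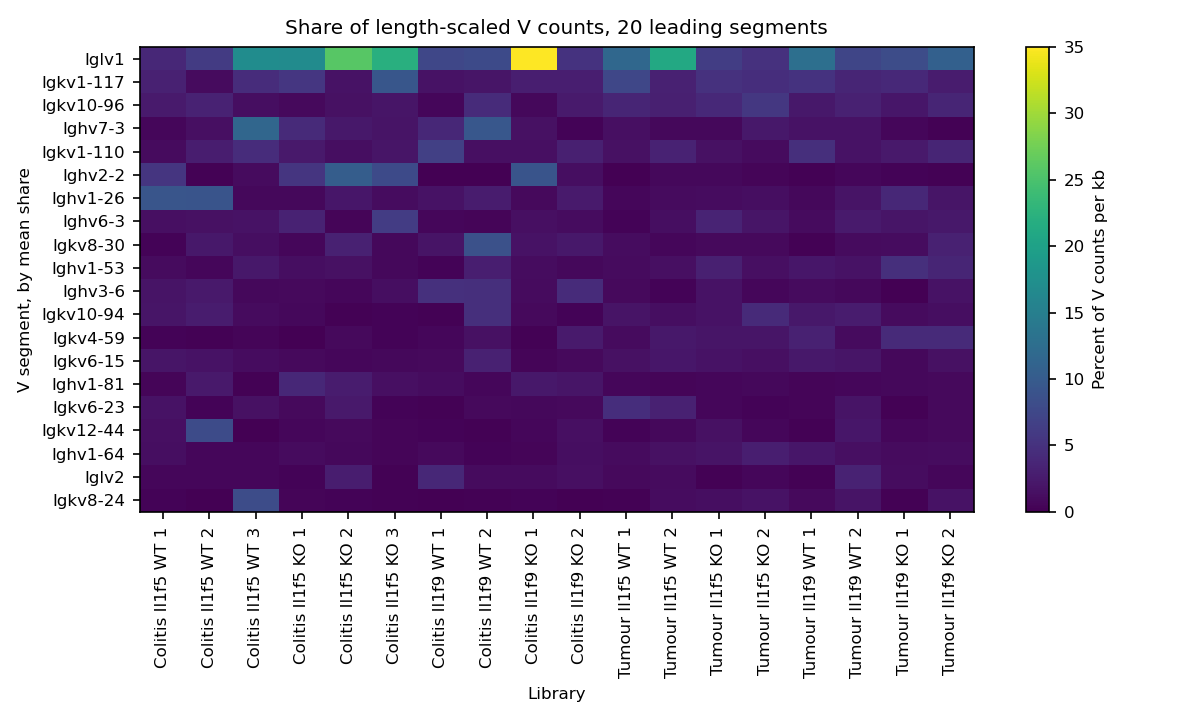
Share of length-scaled V counts (colour, percent, 0 to 35) taken by each of the 20 segments with the highest mean share, by library. Iglv1 leads 14 of 18 libraries and reaches 34.9% in the first colitis Il1f9 KO library. Ighv2-2 leads the heavy segments in 4 libraries and reaches 10.4% of V counts in colitis.

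The largest segment held 5.13 to 34.9% of V counts per library. Apart from Iglv1, the heavy segment Ighv1-26 came first in the first and second colitis Il1f5 WT libraries at 9.21 and 9.15%. Ighv7-3 came first in the second colitis Il1f9 WT library at 9.45%, and the kappa segment Igkv10-96 in the second tumour library labelled Il1f5 KO at 5.61%. The first colitis Il1f9 KO library was the most uneven, with 5 segments making up 50% of its V counts. The second library of the same group was the most even, with 22. The inverse Simpson number, the count of equally abundant segments that would give the same evenness, was 7.37 and 59.1 in this pair. It was 36.3, 32.7 and 16.1 in colitis Il1f5 WT and 21.1, 11.3 and 13.3 in libraries labelled Il1f5 KO, where 1 WT library lay within the range of the latter. Colitis Il1f9 WT had 35.5 and 26.1.

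In tumours the numbers spanned 17.7 to 53.5. They were 31.8 and 17.7 in Il1f5 WT, 52.9 and 53.5 in libraries labelled Il1f5 KO, 31.9 and 51.9 in Il1f9 WT, and 34.4 and 39.1 in Il1f9 KO. The Il1f5-line groups did not overlap, and their Iglv1 shares were 11.6 and 21.1% in WT and 6.34 and 4.95% in libraries labelled KO. Between 131 and 159 of the 166 members were detected per library. Thinned to 2041 V counts, that of the shallowest library, 119 to 145 would be expected. The second colitis Il1f9 KO library and the second tumour library labelled Il1f5 KO were highest at that depth, with 144.75 and 144.5.

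**Figure D3:**
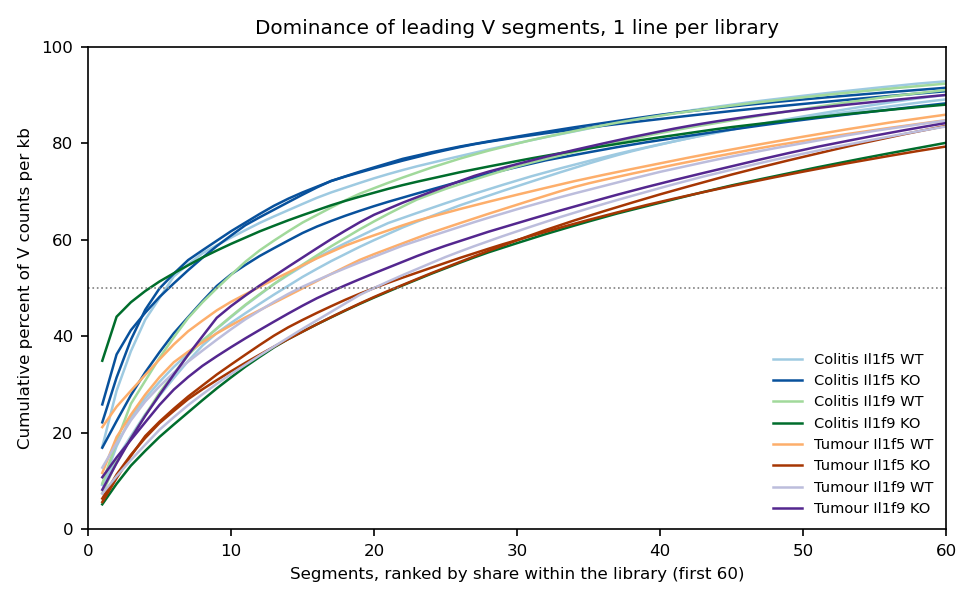
Cumulative share of length-scaled V counts (percent) over segments ranked by share within each library, 1 line per library, coloured by group, with a dotted line at 50%. Lines that rise early are dominated by few segments: 50% is passed at 5 segments in the first colitis Il1f9 KO library and at 22 in the second.

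Heavy chain leaders differed between libraries. In 18 libraries 10 different heavy segments came first within the locus. Ighv2-2 led 4 of them, namely all 3 colitis libraries labelled Il1f5 KO and the first colitis Il1f9 KO library, at 11.2 to 26.6% of heavy counts. Its counts were 637, 12 and 86 in colitis Il1f5 WT and 443, 1859 and 1350 in libraries labelled Il1f5 KO. Colitis Il1f9 WT had 1 and 17 and KO 862 and 179. The first WT library stood above the lowest library labelled KO in the Il1f5 line, and the Il1f9-line groups did not overlap. The log2 fold changes were 2.32 ± 1.27 (edgeR adjusted p = 0.226) and 6.03 ± 2.29 (edgeR adjusted p = 0.117), neither of which passed. In the 8 tumours Ighv2-2 had 5 to 57 counts. Ighv1-26 had 1089 and 527 counts in 2 colitis Il1f5 WT libraries and 60 to 387 in the other colitis libraries, and Ighv7-3 had 1037 and 1378 in 1 WT library of each line and 52 to 403 elsewhere in colitis.

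Kappa leaders were as varied, with 11 segments first within the locus. Igkv1-117 led 7 libraries, 3 in colitis and 4 in tumours. Its counts in colitis were 67 to 524 except for 1843 in the third library labelled Il1f5 KO, and in tumours 80 to 592 except for 1320 in the first Il1f5 WT tumour. Its relative Igkv1-110 had 136 to 496 counts in colitis and 39 to 302 in tumours. Igkv10-96 had 45 to 621 and 63 to 639.

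Most members were rare and many were uneven between libraries. Of the 166, 90 were detected in all 18 libraries and 13 in 10 or fewer. For 20 members at least 50% of all counts came from 1 library. Of all members, 15 ever held over 5% of the V counts of a library, and 59 never held over 1%.

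The V profile was compared between libraries as the share they had in common, the sum over segments of the smaller share of the pair. Colitis libraries of the same group shared 40.1 to 60.5% (median 53.05%, 8 pairs) and those of different groups 37.6 to 70.9% (median 44.6%, 37 pairs). The highest value was between the second colitis library labelled Il1f5 KO and the first colitis Il1f9 KO library, both led by Iglv1 and Ighv2-2. Tumours shared 60.01 to 68.3% within a group (4 pairs) and 52.2 to 66.8% between groups (24 pairs). Pairs overlap in their libraries and got no test.

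By family, defined by the symbol before its dash, the Ighv1 segments (44 members, the largest family of the mouse heavy locus) held 31.6 to 52.1% of heavy counts in colitis and 53.4 to 70.1% in tumours, with no overlap. It was the 1 of 33 families whose share did not overlap between the tissues. The Ighv2 family held 1.61 to 28.8% in colitis and 1.35 to 4.37% in tumours. Among kappa families Igkv4 (20 members) held 7.98 to 25.1% and 17.9 to 25.5%, and Igkv1 (7 members) 8.57 to 31.8% and 12.1 to 21.7%.

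The joined V exon is read together with a constant gene, so the constant genes give a reading of the same transcripts that the member rule did not use. Igha, the IgA heavy chain gene, made up 81.4 to 97.5% of heavy constant counts. Heavy, kappa and lambda constant genes summed to 1899, 1347 and 1572 CPM in Il1f5 WT and to 2901, 4047 and 4562 CPM in libraries labelled Il1f5 KO. In the Il1f9 line they summed to 1513 and 2959 CPM in WT and to 4774 and 4826 CPM in KO. The libraries labelled Il1f5 KO and the Il1f9 KO libraries were above WT of their line, with no overlap.

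Of the 12 genes tested in the list of constant genes and J chain, 7 rose in colitis labelled Il1f5 KO (edgeR, adjusted p under 0.05) with a list median log2 fold change of 1.25, against -0.01 for all genes. The share of all genes called higher there was 13.7%. Igha rose by a log2 fold change of 1.16 ± 0.25 (edgeR adjusted p = 0.00996), from 1299, 899 and 1112 CPM to 1994, 2678 and 3042 CPM. Igkc, the kappa constant gene, rose by 0.93 ± 0.28 (edgeR adjusted p = 0.0431) and Iglc1, a lambda constant gene, by 3.48 ± 0.81 (edgeR adjusted p = 0.0253). Iglc3, another lambda constant gene, had 1.75, 7.40 and 45.4 CPM in WT and 11.6, 8.90 and 4.18 CPM in libraries labelled KO, which overlapped. Ighg2c, an IgG heavy chain gene, rose from 0.11, 0.30 and 0.084 CPM to 10.2, 14.8 and 12.4 CPM. The other risers were Ighg1, Ighg2b and Ighg3, and the count fell to 3 without the second or the third Il1f5 WT library. In colitis Il1f9 KO 3 of 12 rose, at 9.59% of all genes called higher: Igha by 1.25 ± 0.30 (edgeR adjusted p = 0.018), Jchain, which links IgA into dimers, by 1.79 ± 0.40 (edgeR adjusted p = 0.0185), and Ighg2c by 1.082 ± 0.29 (edgeR adjusted p = 0.0225). This count fell to 0 without the first Il1f9 KO library and was 2 without any single other library of the line.

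Per constant count, the V counts were lower in colitis labelled Il1f5 KO and in colitis Il1f9 KO. The ratio of V to constant counts was 0.346, 0.275 and 0.250 in Il1f5 WT and 0.172, 0.240 and 0.227 in libraries labelled Il1f5 KO. It was 0.236 and 0.269 in Il1f9 WT and 0.120 and 0.150 in KO. Groups did not overlap in either line, with log2 ratios of group means of -0.45 ± 0.25 and -0.90 ± 0.18. With 1 library left out at a time they stayed between -0.54 and -0.30 and between -1.07 and -0.75. Without the largest segment of each library they were -0.65 and -1.082. Constant counts cannot be split by V segment and stayed whole there. That shift thus follows from the largest segment shares and is no separate check.

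By chain, heavy and kappa ratios did not overlap between the groups of either line, and lambda ratios overlapped in the Il1f5 line. Heavy V counts per heavy constant count were 0.145 to 0.231 in Il1f5 WT and 0.112 to 0.136 in libraries labelled Il1f5 KO, and 0.154 to 0.175 in Il1f9 WT and 0.057 to 0.091 in KO. Kappa ratios were 0.436 to 0.6004 and 0.264 to 0.381 in the Il1f5 line, and 0.376 to 0.453 and 0.183 to 0.271 in the Il1f9 line. Lambda ratios were 0.702 to 1.03 and 0.592 to 0.733 in the Il1f5 line, and 0.599 to 0.812 and 0.399 to 0.496 in the Il1f9 line. In tumours the ratio over all chains was 0.345 and 0.320 in Il1f5 WT, 0.282 and 0.274 in libraries labelled Il1f5 KO, 0.309 and 0.283 in Il1f9 WT, and 0.334 and 0.246 in Il1f9 KO. Over all chains the Il1f5-line tumours did not overlap (log2 ratio -0.26 ± 0.06), and the Il1f9-line tumours did. The former was -0.08 without the largest segment of each library, with constant counts kept whole. In the Il1f5-line tumours only kappa ratios were apart, at 0.529 and 0.479 in WT and 0.412 and 0.414 in libraries labelled KO. Heavy ratios overlapped, at 0.194 and 0.169 against 0.185 and 0.176. So did lambda ratios, at 0.979 and 0.822 against 0.909 and 1.098. These ratios got no test.

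Smooth muscle markers moved with the colitis groups too, at 2281 to 2535 CPM in Il1f5 WT, 3893 to 5830 CPM in libraries labelled Il1f5 KO, 1707 to 3218 CPM in Il1f9 WT and 4641 to 5143 CPM in Il1f9 KO. By edgeR, 8 of 10 and 9 of 10 were higher in the 2 lines, where 13.7% and 9.59% of all genes were called higher. The second count was smaller without either Il1f9 KO library. Neutrophil markers were at 852 to 1460 CPM in colitis Il1f9 WT and 200.5 to 268 CPM in KO, and macrophage markers at 895 to 1272 and 286 to 333 CPM. By edgeR, 9 of 10 and 8 of 10 were lower, where 9.98% of all genes were called lower. In colitis of the Il1f5 line neutrophil markers overlapped, at 211.5 to 466 CPM in WT and 355 to 808 CPM in libraries labelled KO. Macrophage markers were at 467 to 526 and 560 to 594 CPM. By edgeR, 1 of 10 neutrophil and 3 of 10 macrophage markers were higher, against the same 13.7% of all genes. Their part in the antibody gene differences was not tested.

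**Figure D4:**
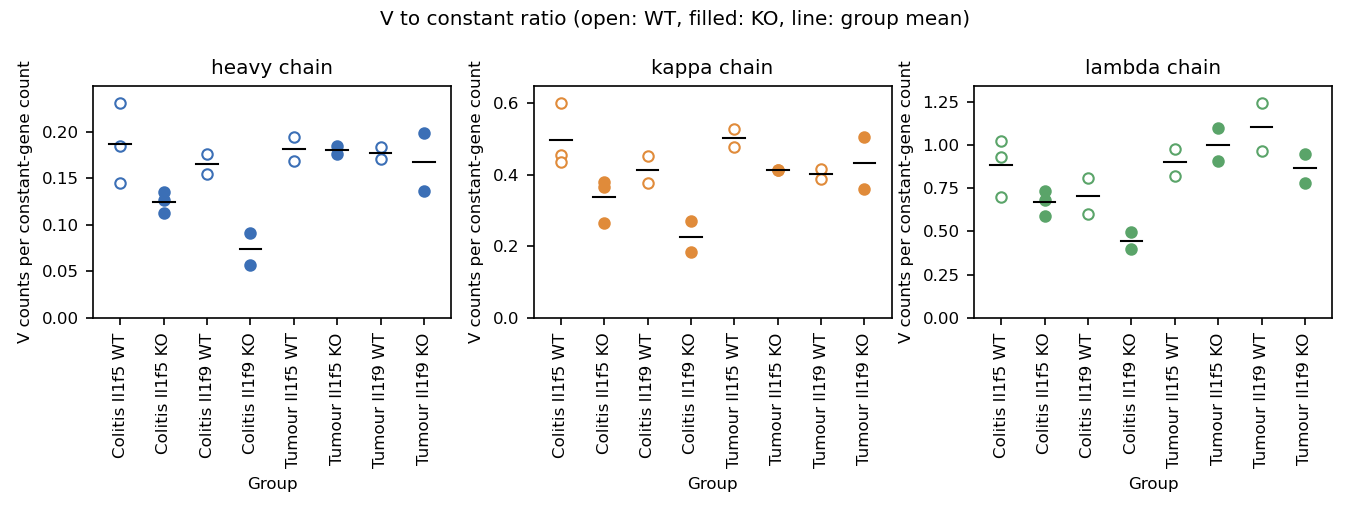
V counts per constant gene count for heavy, kappa and lambda chains in each library (open circles WT, filled circles KO as labelled, lines group means, axes from 0). The colitis libraries labelled Il1f5 KO or Il1f9 KO have heavy ratios of 0.057 to 0.136, below the 5 colitis WT libraries at 0.145 to 0.231. In tumours heavy ratios run from 0.136 to 0.198, and the kappa ratios of the Il1f5-line groups are apart.

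Single segments were tested with edgeR over all genes. In colitis labelled Il1f5 KO 153 of 166 members could be tested, 7 were called higher and 0 lower, a share of 4.58%, while 13.7% of all genes were called higher and 11% lower. At an unadjusted p under 0.05 there were 21 in either direction, and the DESeq2 Wald test called 15 higher and 4 lower. The share of all genes under these rules, or with a library left out, is not given here or elsewhere. Such counts are a description only. The median log2 fold change of the tested members was 0.69, with 107 above 0, and the median standard error was 1.06 against 0.17 for all genes. Without the filter on low counts 5 of 166 were called higher and 0 lower, where all genes gave 7.76% and 5.82%. The count fell to 4 without the second Il1f5 WT library and without the second library labelled Il1f5 KO. Groups did not overlap for 16 members higher and 6 lower, where all genes gave 25.8% and 17.5%.

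Igkv17-127 had 8, 7 and 4 counts in Il1f5 WT and 134, 80 and 61 in libraries labelled Il1f5 KO. All 3 of the latter stood above WT, with a log2 fold change of 3.86 ± 0.64 (edgeR adjusted p = 0.00396) that passed with any 1 library left out. Igkv7-33 had no count in the 3 WT libraries and 11, 23 and 43 in those labelled KO (edgeR adjusted p = 0.00791), at least 27.8-fold higher when the WT libraries are together given 3 counts. This call also passed with any 1 library left out. Igkv4-53 had 7, 2 and 9 against 134, 92 and 39 counts (3.92 ± 0.99, edgeR adjusted p = 0.0258), and Ighv8-12 had 5, 13 and 15 against 19, 68 and 70 (2.29 ± 0.60, edgeR adjusted p = 0.0218). For both segments the groups were apart. Igkv4-53 lost its call in 5 of 10 fits with a library left out, and Ighv8-12 in 4 of 10, in each case without any single Il1f5 WT library and without the second library labelled KO, and for Igkv4-53 also without the first. Igkv2-112 had 5, 0 and 5 against 46, 34 and 4 counts (3.08 ± 0.85, edgeR adjusted p = 0.0265), with the third library labelled KO at the WT level, and its call was lost without any single WT library, 3 of the 8 fits in which it could be tested. It did not pass the filter without the first or the second library labelled KO. The other called members were Iglv3, given above, and Igkv8-21, named after its value was seen.

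In colitis Il1f9 KO 13 of 153 tested members were called higher and 0 lower, a share of 8.5% (1 of the 13, Igkv14-130, was a member only through the KO group), and 9.59% of all genes were called higher and 9.98% lower. At an unadjusted p under 0.05 there were 25 in either direction, and DESeq2 called 21 higher and 1 lower. The median log2 fold change was 0.82, or 0.73 with 7 members that had a group at 0 set to their bound. The median standard error was 1.30 for the members and 0.20 for all genes. Without the filter 11 of 166 were called higher and 0 lower, where all genes gave 5.59% and 5.74%. The count rested on single libraries: it was 4 without the first Il1f9 WT library, 2 without the second and 2 without the second KO library. Groups did not overlap for 54 members higher and 6 lower, where all genes gave 24% and 37.8%.

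Ighv8-12, also called in the other line, had 6 and 4 counts in Il1f9 WT and 28 and 101 in KO (3.72 ± 0.82, edgeR adjusted p = 0.0115), and was lost without either WT library and without the second KO library. Ighv1-66 had 2 and 3 counts in WT and 24 and 35 in KO (3.601 ± 0.77, edgeR adjusted p = 0.00833), and was lost without the second WT library alone. Igkv14-130 had none in WT and 55 and 17 in KO. Of its 99 counts 72 were in colitis Il1f9 KO, and with 27 elsewhere it met the member threshold only through that group, so its counts are a description. In Ighv8-12 and Ighv1-66 both KO libraries stood above both WT libraries.

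Igkv6-20 had 2 and 8 counts in WT and 46 and 113 in KO (4.04 ± 0.89, edgeR adjusted p = 0.0125), and was lost without either WT library and without the second KO library. Ighv9-2 had 2 and 0 in WT and 17 and 24 in KO (edgeR adjusted p = 0.0152), a ratio of 20.7 with an exact 95% counting interval of 5.37 to 176, and was lost without the second WT and without the second KO library. The remaining 8 called members are covered by the counts.

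The difference between the 2 colitis effects was tested as a contrast of its own. Of 153 members 2 were called with a larger change in the Il1f9 line and 1 with a smaller one, where 12% and 12.8% of all genes were called. Igkv4-70 had 10, 4 and 3 counts in Il1f5 WT and 0, 5 and 0 in libraries labelled Il1f5 KO, but 2 and 4 in Il1f9 WT and 35 and 17 in KO. Igkv17-127, higher with the label in the Il1f5 line, had 34 and 103 counts in Il1f9 WT and 23 and 84 in KO, which overlapped. Igkv6-20, the third called segment, had 25, 2 and 23 counts in Il1f5 WT and 10, 34 and 20 in libraries labelled Il1f5 KO, against 2 and 8 in Il1f9 WT and 46 and 113 in KO. Each of the 3 calls was lost without at least 1 single library. For the other called segments no difference between the lines was shown.

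In tumours no member was called between genotypes by edgeR. In the Il1f5 line 132 members were tested, with 0 calls, a median log2 fold change of 0.03 and 17 at an unadjusted p under 0.05. DESeq2 called 1 higher and 4 lower. Of all genes 0.028% were called, so the comparison made few calls of any kind. The median standard error was 0.83 for the members and 0.26 for all genes. In the Il1f9 line 132 were tested with 0 calls, a median of -0.08 and 13 at an unadjusted p under 0.05. DESeq2 called 2 higher and 0 lower there, and 0.0168% of all genes were called by edgeR. Median standard errors in this line were 1.01 for the members and 0.26 for all genes. The contrast between lines gave 0 calls, 13 at an unadjusted p under 0.05 and 2 higher by DESeq2, with 0.0784% of all genes called. Without the filter on low counts the calls were many more. The Il1f5 line then had 16 of 166 higher and 21 lower, where 3.93% and 2.3% of all genes were called. The Il1f9 line had 16 higher and 10 lower, against 1.48% and 1.05% of all genes. The contrast between lines had 15 higher and 16 lower, against 2.02% and 2.34%.

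Tumours and colitis pieces differed in tissue, treatment course and deposited table, which cannot be told apart. In this contrast 157 members were tested, 8 were called higher in tumours and 30 lower, while 36.5% of all genes were called higher and 36.1% lower. A share of 24.2% of the members tested was thus called, against 72.6% of all genes. The median standard error was 0.665 for the members and 0.129 for all genes, so the 2 shares do not compare the size of the changes. By locus, 21 of 79 heavy segments were lower and 0 higher, 8 of 75 kappa segments were lower and 8 higher, and 1 of 3 lambda segments, Iglv1, was lower (log2 fold change -1.32 ± 0.42, edgeR adjusted p = 0.0155). Of these calls 1 of the 8 higher and 8 of the 30 lower were members only through the tissue where they were high. The median over members was -0.59 and over all genes -0.01. Without the filter 21 of 166 were higher and 76 lower, against 21.3% and 22.1% of all genes. No member had tumour and colitis libraries wholly apart, where 10.6% of all genes did so upward and 12.4% downward. With single libraries left out the calls fell to 3 higher without the first Il1f9 WT tumour, 4 without the first Il1f5 WT tumour and 5 without the second tumour labelled Il1f5 KO or the first Il1f9 KO tumour. The lower calls fell to 17 without the second colitis library of Il1f9 WT or KO, 18 without the second Il1f5 WT or first Il1f9 KO tumour and 19 without the first tumour labelled Il1f5 KO.

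Among the heavy segments lower in tumours, Ighv14-2 had 6 to 52 counts in colitis and 1 to 21 in tumours (-1.95 ± 0.35, edgeR adjusted p = 0.000106). Ighv1-81 had 17 to 487 and 12 to 97 counts (-1.97 ± 0.38, edgeR adjusted p = 0.000486), and Ighv3-6 62 to 675 and 3 to 142 (-2.24 ± 0.56, edgeR adjusted p = 0.00375). The kappa segments Igkv3-1, with 9 to 177 and 4 to 13 counts (-2.33 ± 0.53, edgeR adjusted p = 0.00135), and Igkv12-46, with 11 to 232 and 9 to 29 (-1.90 ± 0.48, edgeR adjusted p = 0.00297), were lower as well. All 5 calls passed in each of 18 fits with a library left out. Their ranges overlapped between the tissues.

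Segments higher in tumours were all kappa. Igkv4-57-1 had 2 to 39 counts in colitis and 18 to 181 in tumours (2.24 ± 0.62, edgeR adjusted p = 0.00577), and Igkv4-55 had 0 to 84 and 11 to 138 (2.27 ± 0.70, edgeR adjusted p = 0.0107). Both passed in all 18 such fits. Igkv1-133 had 0 to 5 counts in colitis and 1 to 44 in tumours. Its 31 colitis counts alone would not have made it a member, so these values are a description. Igkv4-74 had 0 to 16 and 4 to 42 counts (1.66 ± 0.55, edgeR adjusted p = 0.0135) and was lost without the first Il1f5 WT, first Il1f9 WT or second Il1f9 KO tumour. Igkv15-103 had 9 to 65 and 19 to 249 (1.48 ± 0.49, edgeR adjusted p = 0.0158) and was lost without the first Il1f5 WT or first Il1f9 WT tumour.

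**Figure D5:**
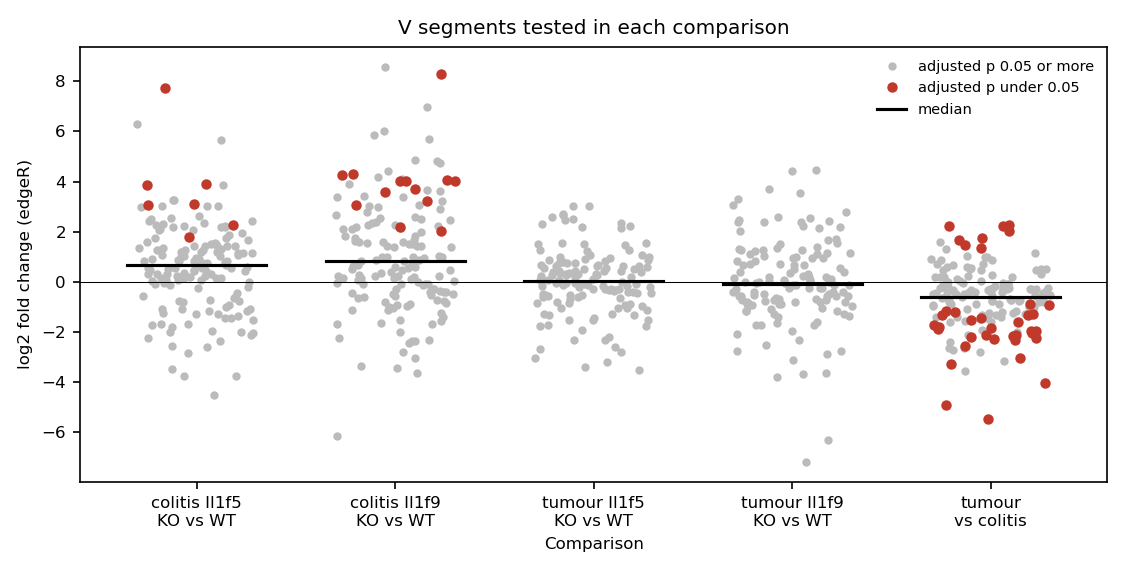
Log2 fold change (edgeR) of each V segment tested in 5 comparisons, 1 point per segment, red where the adjusted p is under 0.05, black lines at the median. The medians are 0.69 and 0.82 in the colitis comparisons, 0.03 and -0.08 in the tumour comparisons and -0.59 between tumours and colitis. Points beyond 5 on either side belong to segments with few or no counts in 1 group.

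The other antibody and B lineage genes are given from lists that were chosen with earlier results of these data known. Plasma cell genes split in colitis labelled Il1f5 KO, with 6 of 20 higher and 9 lower, where 13.7% and 11% of all genes were called, and sums of 2167 to 2220 CPM in WT and 1782 to 2064 CPM in libraries labelled KO. The counts fell to 1 higher and 3 lower without the second Il1f5 WT library and to 2 and 3 without the first. Mzb1, a chaperone of antibody assembly, was higher (1.02 ± 0.28, edgeR adjusted p = 0.0238) and Creld2, an endoplasmic reticulum stress gene, lower (-0.88 ± 0.10, edgeR adjusted p = 0.000654). Several genes of this list serve secretion in other cells too, Sdc1 and Xbp1 in epithelium among them. In colitis Il1f9 KO 2 of 20 were higher, Mzb1 (1.25 ± 0.33, edgeR adjusted p = 0.0236) and Sec11c (0.54 ± 0.12, edgeR adjusted p = 0.0121), and 3 lower, near the 9.59% and 9.98% of all genes.

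B cell genes, which mark cells before the plasma cell stage, were called in 3 of 20 in colitis labelled Il1f5 KO, with Cd37 higher and Ciita and Blnk lower, no more than the 13.7% and 11% of all genes. In colitis Il1f9 KO edgeR called 0 of 20, with 4 at an unadjusted p under 0.05 and 1 by DESeq2. Between tumours and colitis 19 of 20 were lower, at 36.1% of all genes, with Pax5 at -2.99 ± 0.25 (edgeR adjusted p = 2.31e-08). The constant genes were lower in 10 of 12, Igha by -1.64 ± 0.18 (edgeR adjusted p = 1.45e-06) and Igkc by -0.81 ± 0.21 (edgeR adjusted p = 0.00322). Germinal centre genes were called in 0 of 12 in colitis labelled Il1f5 KO by edgeR, with 4 at an unadjusted p under 0.05 and 0 by DESeq2. In colitis Il1f9 KO 1 of 12, S1pr2, was lower (-0.78 ± 0.23, edgeR adjusted p = 0.035), where 9.98% of all genes were called lower.

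Of 20 lymphoid follicle and homing genes tested, 3 were higher in colitis labelled Il1f5 KO, near the 13.7% of all genes called higher there. Among the 3 were Cxcl13, the B cell chemoattractant, at 1.37 ± 0.26 (edgeR adjusted p = 0.00716) and Madcam1, the gut homing ligand, at 1.88 ± 0.22 (edgeR adjusted p = 0.000829). In colitis Il1f9 KO, where 9.98% of all genes were lower, 7 of 20 were lower (1 without the second WT or the second KO library and 3 without the first KO library), Cxcl13 at -3.15 ± 0.33 (edgeR adjusted p = 0.000464) among them. The difference between lines was called for both, at -4.53 ± 0.42 for Cxcl13 (edgeR adjusted p = 0.000493) and -2.86 ± 0.36 for Madcam1 (edgeR adjusted p = 0.000699). Of 9 antibody transport and Fc receptor genes, 5 were lower in colitis Il1f9 KO against the same 9.98%, Fcgr3 at -2.88 ± 0.25 (edgeR adjusted p = 0.00012) among them, alongside the macrophage and neutrophil markers given above. In the tumour comparisons edgeR called 0 of 12 constant genes in either line, with 2 and 0 at an unadjusted p under 0.05 and 1 and 0 by DESeq2. It called 0 of 20 plasma cell genes, with 4 and 7 at an unadjusted p under 0.05 and 2 and 2 by DESeq2.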

How the data were processed

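RNA from 18 libraries was sequenced after poly(A) selection as 150-base paired, non-directional reads, per the labels' protocols. Trim Galore 0.6.4, HISAT2 2.0.5 and featureCounts 2.0.0 are named in the submitters' processing notes. The authors deposited raw counts per gene and FPKM values (counts scaled to gene length and depth) in 3 tables, 1 for colitis and 1 for the tumours of each line. The build and the handling of reads that match several genes are not given in the sources used here. Without strand, overlapping genes cannot be told apart.

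The counts were joined by gene identifier. FPKM was used only as an alternative. CPM used plain library totals, and shares used counts per kilobase. Tests were edgeR 4.0.16 quasi-likelihood (R 4.3.3, TMM, filterByExpr, group means model, robust) over all genes with Benjamini-Hochberg adjustment, called at 0.05. All groups of a tissue shared 1 fit, and tumour against colitis used all 18 libraries. The edgeR fit was tried on simulated counts for the genotype contrasts, with the same spread for every gene. That simulation did not cover the other fits, the shares or the wider spread of V segments. Alternatives were DESeq2 1.42.0, its size factors, no filter, the 2 groups alone, a replicate block, adjusted p under 0.10, a log2 fold change of at least 1, other member thresholds, FPKM and each library left out. The totals of 16621611 to 23776174 counts gave 2041 to 18989 V counts per library, which sets the precision of shares.

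The members and gene lists were chosen with earlier results of these data known. Named members were the 3 with the highest mean share per locus, each segment first in a library, up to 5 called per direction and comparison by smallest p, the 3 nearest the count threshold on each side, and families by share. Constant genes were always named, and up to 2 called genes of each other list. Relatives in the sequence pairs, leaders within a locus and further list genes were named after their values were seen.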

Additional observations from a re-analysis of the deposited data

Results flagged for a closer look

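In colitis 3 segments had an effect of the labelled genotype that differed between the lines by a contrast of its own (edgeR, Benjamini-Hochberg over all genes). Igkv17-127 differed by -4.14 ± 0.90 on the log2 scale (SE; adjusted p = 0.0107), with all 3 libraries labelled Il1f5 KO above WT and overlapping Il1f9 groups, and the call was lost without the second Il1f9 WT library (0.0505). Igkv4-70 differed by 4.89 ± 1.39 (edgeR adjusted p = 0.0257), with 0 to 5 counts in libraries labelled Il1f5 KO and 35 and 17 in Il1f9 KO, and was lost in 6 of 10 fits with a library left out. Igkv6-20 differed by 3.61 ± 1.13 (edgeR adjusted p = 0.0417), with 10 to 34 counts in libraries labelled Il1f5 KO and 46 and 113 in Il1f9 KO, and was lost in 7 of 10.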

How the results depend on the processing

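Results with a called direction kept it under all alternatives run, and the counts of called segments were the least stable, with the cause not tested. DESeq2's Wald test gave 15 higher and 4 lower in colitis labelled Il1f5 KO, 21 and 1 in colitis Il1f9 KO, 5 and 4 for the difference between lines, 1 and 4 in the Il1f5 tumours, 2 higher in the Il1f9 tumours and 2 higher for the tumour difference. Without the filter the tumour counts were 16 higher and 21 lower, 16 and 10, and 15 and 16 for the difference, and tumour against colitis gave 21 and 76. With only the 2 groups compared there were 3 lower in colitis of the Il1f5 line, 24 higher and 1 lower in that of the Il1f9 line, and 5 and 3 in the Il1f5 tumours. At an adjusted p under 0.10 the counts were 12 and 4, then 1 lower in the Il1f9 line, 5 and 5 for the colitis difference, and 4 and 3 in the Il1f5 tumours. Members with at least 200 counts gave 7 higher in colitis Il1f9 KO and 1 for the difference. For DESeq2, the 2 groups alone, the 0.10 threshold and the 200-count members, the share of all genes called is not given. Those counts are therefore a description only.

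Some named calls were lost: Igkv4-53 in colitis of the Il1f5 line without the filter (edgeR adjusted p = 0.0734) and Igkv6-20 for the colitis difference without it (0.123). Igkv14-130, a member only through colitis Il1f9 KO and so given as a description, had a DESeq2 adjusted p of 0.0546 there.

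Same-numbered replicates did not deviate together (correlations -0.195 to 0.000), so the numbers were not taken to pair libraries. The replicate block gave 2 lower in colitis of the Il1f5 line, 4 higher and 2 lower for the colitis difference and 1 lower in the Il1f5 tumours. The share of all genes called with the block is not given, so these counts are a description only. With the block the calls of Igkv4-53 (edgeR adjusted p = 0.0515) and Igkv6-20 for the difference (0.0736) were lost. Igkv14-130, given as a description only, had an edgeR adjusted p of 0.0526 with the block.

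With 1 library left out at a time, in the order colitis Il1f5, colitis Il1f9 and colitis difference, higher calls ran 4 to 9, 2 to 15 and 0 to 4, and lower calls 0 to 3, 0 to 6 and 0 to 7. In the tumours of both lines and their difference, higher calls ran 0 to 5, 0 to 3 and 0 to 2, and lower calls 0 to 1, 0 to 0 and 0 to 1. Tumour against colitis ran 3 to 10 higher and 17 to 31 lower. The V total, as a log2 ratio, ran 0.64 to 1.13, -0.30 to 0.86, -0.89 to 0.08 and -0.18 to 0.76 in the order colitis Il1f5, colitis Il1f9, tumour Il1f5 and tumour Il1f9. In the same order the heavy share difference ran -5.18 to -1.19, -11.4 to -2.47, 5.97 to 8.06 and -2.73 to 1.58 percentage points, kappa -13.0 to -8.53, -14.5 to 6.01, 0.667 to 8.31 and 1.10 to 3.33, lambda 10.2 to 17.3, -3.54 to 25.9, -16.4 to -6.64 and -2.71 to -0.574, and the largest segment 7.70 to 12.4, -3.30 to 26.5, -15.2 to -5.67 and -3.30 to 2.09. Where a fit left a group with 1 library, that library was taken to vary like the others. The counts of calls with a library left out have no share of all genes beside them and are a description only. The V to constant ratio ran -0.54 to -0.30, -1.07 to -0.75, -0.31 to -0.20 and -0.26 to 0.18. Its alternatives were chosen after seeing the data, and in the Il1f5 tumours it was -0.16 from FPKM and -0.083 without the largest segment. The latter removed V counts only, kept the constant counts whole and is no separate check. Segments under about 50 counts were limited by depth.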

Other observations

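Other parts of the antibody loci had few counts. Of 155 V pseudogenes 27 had counts, 106 in all. Of 19 diversity genes 4 had counts, 7 in all, and of 14 joining genes 12 had counts, 1327 in all, at 0.26 to 8.39 CPM per library (median 3.61). The 4 genes of the lambda V-like biotype were listed at 0.

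Ighg2c, an IgG heavy chain gene, stood out in tumours of the Il1f5 line, where the WT libraries had 224 and 43.9 CPM and the libraries labelled Il1f5 KO 2.37 and 4.73 CPM. The groups did not overlap, and the log2 fold change was -5.07 ± 0.996 with an adjusted p of 0.0829 in edgeR, which did not pass. In colitis its effect differed between the lines by -5.15 ± 0.50 (edgeR adjusted p = 0.000342). Colitis Il1f9 WT libraries had 9.98 and 7.03 CPM, while Il1f5 WT libraries had at most 0.30 CPM.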
